A study of Homo sapiens with 6 samples.

Results

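The basal miRNA profile of HuCCT1 cells was described from the 3 arrays of untreated cells, out of 6 arrays in the series. HuCCT1 is an established human cholangiocarcinoma (CCA) line, a cancer of the bile duct epithelium, and the source is labelled as cholangiocarcinoma. The 3 control samples received TGF-β at 0 ng/ml and were harvested at 72 h, with total RNA labelled with Cy5 and hybridized to 1 array each. The labels give replicate numbers but do not say whether the replicates were separate cultures, so the spread between arrays may be technical. The results hold for this 1 line, and the arrays of treated cells were not used.

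All probes with a human miRNA name were taken, 2555 on each array. The signal of a probe was its brightness minus the mean of the 229 blank spots on the same array. A probe was called detected when it lay more than 2 SD of the blank spots above that mean. Of the 2555 probes, 318 were detected on all 3 arrays. Levels are given in 3 ways. The share is the percentage of the summed signal of all detected probes on an array. The relative signal is scaled so that the median of the 318 miRNAs is 25 on each array. The height is the distance from the blank mean in SD of the blank spots. Brightness depends on the probe and on labelling as well as on the number of molecules, so every order of miRNAs given here is an order of probe brightness.

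MiRNAs are short RNAs cut from hairpin precursors by Drosha and Dicer. One arm of the hairpin, 5p or 3p, is usually kept by an Argonaute protein and the other is degraded, and bases 2 to 8 of the kept strand, the seed, pair with target mRNAs. Many miRNAs are restricted to a lineage: miR-122 marks hepatocytes, miR-451a red cells, miR-142 and miR-223 blood cells, miR-126 endothelium, miR-143 and miR-145 smooth muscle and fibroblasts, and the miR-200 family epithelium. MiR-21, miR-221 and miR-31 are abundant in many carcinoma lines.

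The sequences of the brightest miRNAs on these arrays are shown because the shape of the profile turns on them. A RefSeq mature sequence was matched by name to 2246 of the 2555 probes and to 275 of the 318 detected on all 3 arrays. The seed, bases 2 to 8 from the 5′ end, is in capitals, and the order is that of the mean share.
miR-4454: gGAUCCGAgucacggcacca
miR-7975: aUCCUAGUcacggcacca
miR-7977: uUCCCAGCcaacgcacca
miR-4284: gGGCUCACaucaccccau
miR-5100: uUCAGAUCccagcggugccucu
miR-21-5p: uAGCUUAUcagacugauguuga
miR-1260b: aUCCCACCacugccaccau
miR-6822-5p: cAGGGAACcaguuggggcuu
miR-221-3p: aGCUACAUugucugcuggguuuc
miR-7704: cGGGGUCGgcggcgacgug
miR-23a-3p: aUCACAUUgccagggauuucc
miR-31-5p: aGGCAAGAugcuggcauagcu
miR-29a-3p: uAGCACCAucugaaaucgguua
miR-4497: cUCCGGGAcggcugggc
let-7f-5p: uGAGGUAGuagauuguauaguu
miR-23b-3p: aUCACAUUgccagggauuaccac
miR-200c-3p: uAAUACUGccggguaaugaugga
miR-222-3p: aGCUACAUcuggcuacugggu
MiR-221-3p and miR-222-3p share a seed, as do miR-23a-3p and miR-23b-3p. MiR-1273g-3p and miR-3960 are also among the brightest and are named only.

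Positions are those of RefSeq on GRCh38.p14, and the annotation used gives gene spans and not exons. MiR-4454 lies at chr4:163093607-163093626 on the minus strand, miR-7975 at chr19:55123225-55123242 on the minus strand and miR-7977 at chr3:176515103-176515120 on the plus strand, and no other listed gene overlaps these 3. MiR-4284, at chr7:73711327-73711344 on the plus strand, lies within the span of STX1A. MiR-21-5p, at chr17:59841273-59841294 on the plus strand, lies within the span of VMP1. MiR-31-5p, at chr9:21512158-21512178 on the minus strand, lies within the long non-coding RNA MIR31HG. MiR-221-3p, at chrX:45746180-45746202 on the minus strand, and miR-222-3p, at chrX:45747036-45747056, lie within the long non-coding RNA MIR222HG. MiR-200c-3p, at chr12:6963742-6963764 on the plus strand, lies within MIR200CHG.

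Detection differed between the arrays. On control arrays 1, 2 and 3, 464, 329 and 384 probes were detected, or 18.2%, 12.9% and 15.0% of the 2555, and 12.4% were detected on all 3. A further 60 miRNAs were detected on 2 arrays, 103 on 1 and 2074 on none. The SD of the blank spots was 1.79, 6.81 and 1.78 brightness units, so array 2 had the highest limit, and 51 miRNAs were detected on arrays 1 and 3 but not on array 2. Array 1 alone detected 87 miRNAs, against 2 for array 2 alone and 14 for array 3 alone. By the same limit, 4.80%, 5.68% and 0.873% of the blank spots themselves would count as detected, and none of the 24 negative control spots did on any array. Among the 178 spots without a probe, 2, 0 and 1 lay above the limit on arrays 1, 2 and 3. Across the 318 miRNAs, log2 signals correlated by 0.985 (arrays 1 and 2), 0.971 (1 and 3) and 0.963 (2 and 3) (Pearson, across miRNAs, which are not independent replicates).

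A few probes held most of the signal. The brightest, miR-4454, held 39.1%, 33.3% and 39.4% of the summed signal on arrays 1, 2 and 3, a mean of 37.3% ± 3.43 (SD, n = 3). The next, miR-7975, held 18.7%, 17.6% and 20.7%, a mean of 18.98% ± 1.58 (SD, n = 3). These 2 probes together exceeded 50% of the signal on each array, and both were lowest in share on array 2. The 10 brightest held 72.9% ± 4.14 (SD, n = 3), the 30 brightest 81.1% ± 2.83 and the 100 brightest 92.8% ± 0.866. To reach 90% of the signal took 75, 83 and 63 miRNAs on arrays 1, 2 and 3.

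**Figure D1:**
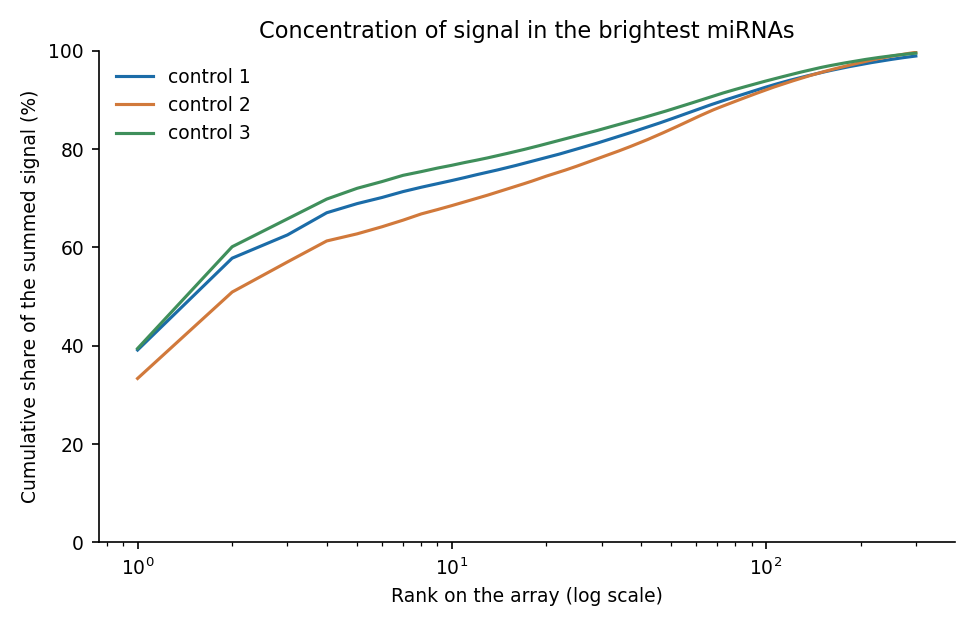
Cumulative share of the summed signal of detected probes (y axis, %) against the rank of the miRNA on its own array (x axis, log scale), 1 line for each of the 3 control arrays. Each line is above 50% at rank 2, and array 2 lies below the other 2 arrays at ranks 2 to 100.

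MiR-7977 held 4.73%, 4.27% and 5.67% and miR-4284 held 4.51%, 6.13% and 4.02%. The mean log2 difference between these 2 probes was 0.01 ± 0.51 (SD, n = 3), with miR-7977 brighter on arrays 1 and 3 and miR-4284 on array 2, so they were not separable. MiR-5100 came next at 1.86%, 1.44% and 2.20%. MiR-21-5p, the first of the long-known miRNAs in the order, held 1.20%, 1.45% and 1.37%, and its neighbours miR-5100 and miR-1260b were each brighter than it on some arrays and dimmer on others. MiR-1260b held 1.25%, 1.27% and 1.27%, the narrowest spread of the 10.

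The membership of the top was more stable than its order. The same 10 miRNAs were the 10 brightest on all 3 arrays, and 23 miRNAs were among the 30 brightest on each. Of the 29 neighbouring pairs in the order of the 30, 8 kept the same order on all 3 arrays, among them miR-4454 over miR-7975 (log2 difference 0.97 ± 0.08, SD, n = 3), miR-7975 over miR-7977 (1.96 ± 0.09) and miR-4284 over miR-5100 (1.41 ± 0.62). For the other 21 pairs, the arrays disagreed on which probe was brighter.

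**Figure D2:**
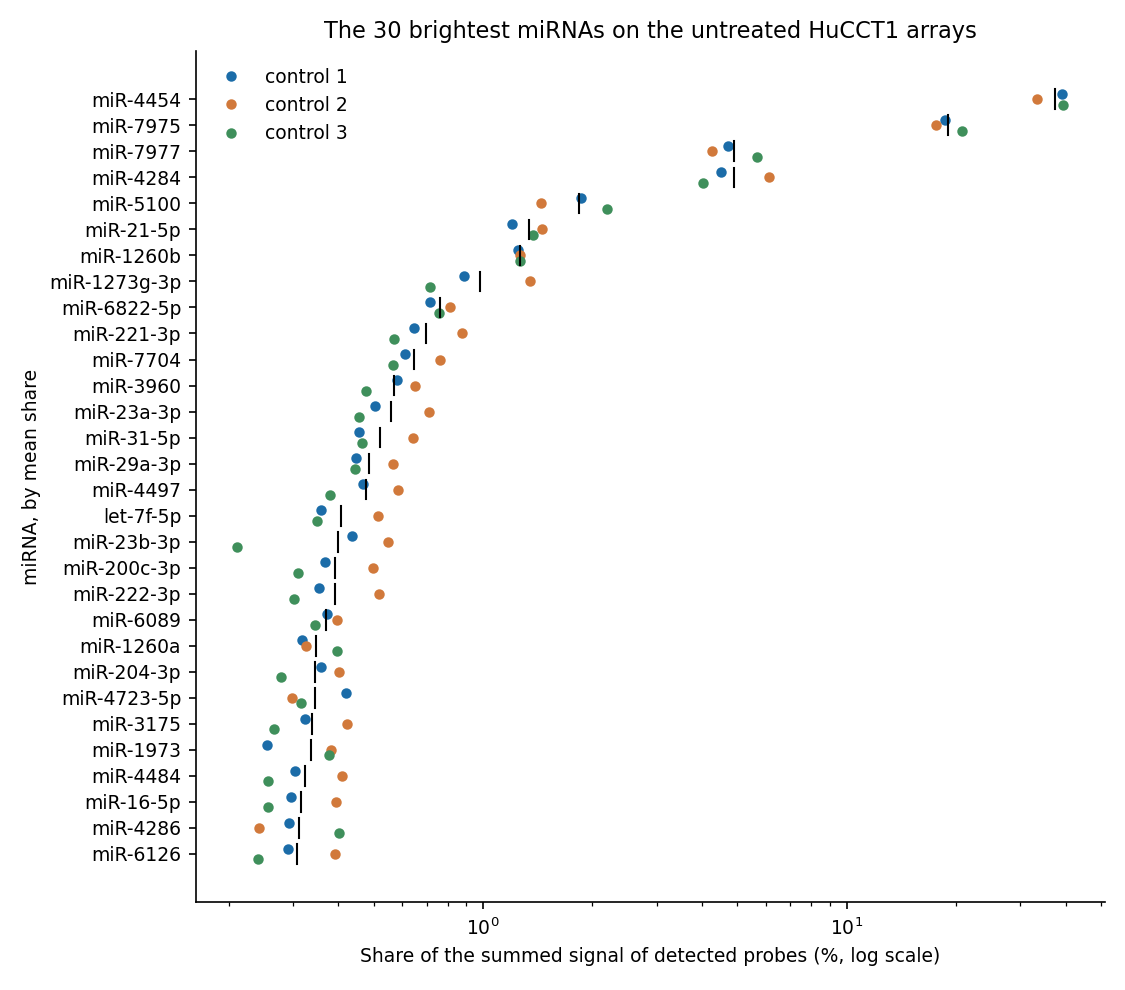
Share of the summed signal (x axis, %, log scale) of the 30 miRNAs with the highest mean share, 1 point for each control array and a black bar at the mean of the 3. MiR-4454 and miR-7975 stand apart, and below about the fifth miRNA the points of neighbours overlap; array 2 (orange) is to the right for most of the lower 20.

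MiR-4454, miR-7975 and miR-7977 ended in the same 5 bases, as did miR-1260a, and miR-1260b held them 1 base from its end. These sequences are shown again with CACCA in capitals, since names with this ending held more of the signal than any family that shares a seed.
miR-4454: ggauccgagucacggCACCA
miR-7975: auccuagucacggCACCA
miR-7977: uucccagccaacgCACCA
miR-1260a: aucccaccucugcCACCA
miR-1260b: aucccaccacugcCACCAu
Of the 2246 miRNAs with a sequence, 6 ended in CACCA (0.267%), and 4 of these were detected on all 3 arrays. The other two, miR-4252 and miR-876-5p, were detected on none. The 6 names together held 62.9%, 55.5% and 66.2% of the signal on arrays 1, 2 and 3, a mean of 61.5% ± 5.47 (SD, n = 3). MiR-4454 and miR-7975 alone held 37.3% and 18.98% of the signal on average, and the ending was taken up after the data were seen. The shorter ending CCA was held by 43 names, of which 8 were detected on all 3 arrays and 35 on none. Among all human probes, 12.4% were detected on all 3 arrays and 81.2% on none.

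The longest stretch shared by miR-4454 and miR-7975 was 13 bases, and no other matched mature sequence held it. Mature tRNAs end in CCA, and miR-4454 and miR-1260b are among miRNA names known to match tRNA sequence. A list of 8 names that match other small RNAs (miR-1246, miR-1248, miR-1260a, miR-1260b, miR-1291, miR-3648, miR-3687 and miR-4454) had 6 members detected on all 3 arrays and 2 (miR-1248 and miR-1291) on none. It held 39.2% ± 3.38 of the signal (SD, n = 3), nearly all of it from miR-4454. MiR-7975 and miR-7977, which end in CACCA as miR-4454 does, were not on this list. What RNA bound these probes was not tested.

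The values of miR-4454 and miR-7975 differed in kind from those of the other human probes. These 2 were the only values with no fractional part, as deposited and with no tolerance, among the human probes of each array, and the file headers give the fitted lines that join readings at other gains of the scanner (r2 between 0.997 and 1.000). The brightest value, 49035 on array 2, was on the miR-4454 probe. Each spot has a second value that its column names as background, taken here as local. How it was measured is not given in the sources used here. For the miR-4454 probe it was 94.4%, 92.9% and 17.8% of its brightness. Where that value was subtracted instead of the blank mean, miR-7975 had the highest mean share, at 31.6% against 29.9% for miR-4454. The arrays differed in this: miR-7975 was the brighter of the 2 on arrays 1 and 2, and miR-4454 on array 3. On array 3 the background value was 7493 beside a brightness of 42086 for miR-4454, and 8479 beside 22098 for miR-7975. The local background value was high beside bright spots in general, with a median of 86.2%, 85.3% and 61.1% of the brightness over the 318 detected miRNAs.

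Without the 4 detected names ending in CACCA, the signal was spread more evenly. MiR-4284 then held 12.1%, 13.8% and 11.9% of the rest, and miR-21-5p held 3.23%, 3.26% and 4.05%. It took 25 miRNAs to reach 50% of this remaining signal, and the 10 brightest held 35.2%. These values were added after the data were seen.

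Long-known miRNAs made up a limited part of the signal. MiRNA numbers follow the order of naming, and names below 1000, the let-7 family included, covered 913 probes, of which 121 (13.3%) were detected on all 3 arrays. They held 13.3%, 17.0% and 11.6% of the signal. Names from 1000 to below 4000 covered 485 probes, with 48 detected and 6.67% ± 0.904 of the signal (SD, n = 3). Names from 4000 upward covered 1157 probes, with 149 detected (12.9%) and 80.3%, 75.4% and 82.5% of the signal. Without the names ending in CACCA, the last class held 18.2% ± 1.80 of the total and the middle class 6.32% ± 0.935. The first class was unchanged at 13.96% ± 2.74. The names ending in CACCA make up most of the total against which each of these shares is taken. The percentage detected was near the background of 12.4% in the first and last classes. The 30 brightest included 11 names below 1000.

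Among these 11, miR-21-5p, which represses PDCD4 and is raised in many carcinomas, was the brightest. Its relative signal was 785, 793 and 1040 on arrays 1, 2 and 3. MiR-221-3p and miR-222-3p, which repress the cell cycle inhibitor p27, had relative signals of 423, 478 and 432 and of 233, 282 and 229. MiR-221-3p was the brighter of the 2 on each array, by a log2 difference of 0.85 ± 0.08 (SD, n = 3). MiR-31-5p, made from a locus beside CDKN2A that is lost in some tumors, was present at 299.7, 351.9 and 352.4. On the relative scale the 3 arrays were thus close for miR-21-5p, miR-221-3p, miR-222-3p and miR-31-5p, with the highest value within 1.5 times the lowest for each. Shares spread more for some, with miR-222-3p at 0.355%, 0.516% and 0.302% on arrays 1, 2 and 3. MiR-23b-3p, also among the 11, was less even, with relative signals of 286, 300 and 160.

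The other single miRNAs often abundant in carcinoma lines differed among themselves. Of a list of 8 that includes miR-21-5p and miR-31-5p, 5 were detected on all 3 arrays, these 2 among them, against 12.4% of all human probes. MiR-22-3p had a relative signal of 40.7 ± 3.92 (SD, n = 3) and miR-182-5p 14.3 ± 3.15. MiR-210-3p, which is induced by hypoxia, was at 17.5, 18.2 and 6.44, so that array 3 was far below the other 2. MiR-96-5p, from the same cluster as miR-182, was detected on arrays 1 and 3 only. Its relative signal was 3.44, 3.69 and 3.61, and on array 2 it fell below the higher limit there, 5.07. MiR-183-5p of that cluster and miR-34a-5p, a p53 target, were not detected on any array, with heights for miR-34a-5p of -1.54, -1.30 and -1.56 SD.

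The let-7 family, which represses RAS, MYC and HMGA2, held the largest mean share among the seeds that several detected miRNAs had in common. All 9 of its listed members were detected on all 3 arrays and together held 1.72%, 2.29% and 1.30% of the signal. Let-7f-5p was the brightest, with a relative signal of 235, 281 and 266, followed by let-7a-5p at 213, 206 and 123. Let-7d-5p, let-7c-5p, let-7e-5p and let-7b-5p lay between 154 and 132 on average, and let-7i-5p (50.7 ± 3.04, SD, n = 3) and let-7g-5p (47.5 ± 0.271) well below. MiR-98-5p was the dimmest at 17.3 ± 4.37. The bases of 4 of them show how little they differ, with the common seed in capitals.
let-7f-5p: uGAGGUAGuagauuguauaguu
let-7a-5p: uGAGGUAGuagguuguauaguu
let-7c-5p: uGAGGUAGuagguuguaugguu
let-7e-5p: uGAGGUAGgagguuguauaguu
Probes to such sequences may share signal, so the levels of single let-7 members are uncertain. MiR-4458 and miR-4500 carry the same seed and were not detected on any array.

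Other families held less on average. By seed, the miR-1260 pair held 1.57%, 1.59% and 1.66% on arrays 1, 2 and 3, less than let-7 on arrays 1 and 2 and more on array 3. As means, miR-221 and miR-222 held 1.09% ± 0.271 (SD, n = 3), the 3 miRNAs with the miR-23 seed 0.979% ± 0.306 and the miR-17 seed, with 6 of 8 members detected, 0.897% ± 0.191. The miR-29 family, which represses collagens and DNA methyltransferases, held 0.639% ± 0.0743 with all 3 members detected. The miR-200 seed shared by miR-200b-3p, miR-200c-3p and miR-429 held 0.571% ± 0.144. The pair miR-103a-3p and miR-107 held 0.424% ± 0.109, and the miR-15 and miR-16 seed 0.421% ± 0.0836, with 4 of 7 members detected on all 3 arrays.

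Over the 12 lists of families and of single miRNAs common in carcinoma lines, 49 of 56 members were detected on all 3 arrays, 4 on 1 or 2 and 3 on none, against 12.4% of all human probes on all 3. The lists were drawn up from miRNAs known to be widely expressed, with earlier results of these arrays known. Together they held 9.84% ± 2.07 of the signal (SD, n = 3), and their detected members had a median relative signal of 84.7, against 25.1 for all 318. The 5 members of the miR-30 family ranged from 99.3 ± 8.22 for miR-30c-5p to 19.9 ± 1.36 for miR-30e-5p. In the miR-17-92 cluster, an oncogenic polycistron, miR-17-5p was at 142 ± 4.26 and miR-92a-3p at 22.7 ± 6.19, whereas miR-19a-3p was detected on 2 arrays and miR-18a-5p on 1. MiR-19a-3p was at 2.30, 2.70 and 2.84, and was missed on array 2, where the limit was 5.07.

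Epithelial miRNAs were present. Of the 7 on the epithelial list, 6 were detected on all 3 arrays, against 12.4% of all human probes. The list was drawn up with earlier results of these arrays known, so the count is a description only. MiR-200c-3p, which holds down ZEB1 and ZEB2, had a relative signal of 240.5, 273.2 and 236.1. MiR-205-5p, typical of squamous and basal epithelium, was at 116, 136 and 102. MiR-200b-3p (108 ± 12.5, SD, n = 3) and miR-200a-3p (29.7 ± 6.93) followed. MiR-141-3p (13.6 ± 3.41) was lower, and miR-429 (5.56 ± 0.631) lay close to the limit, at 5.86, 2.09 and 4.02 SD. MiR-203a, a keratinocyte miRNA, was not detected on any array, with heights of -1.23, -0.64 and -2.82 SD.

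The miRNAs of other lineages were largely undetected. The 14 lineage lists held 77 miRNAs, of which 5 were detected on all 3 arrays (6.49%, against the background of 12.4%), 3 on 1 array and 69 on none. All 69 lay between -4.95 and 1.61 SD of the blank mean on each array, with medians of -1.92, -1.46 and -3.03 SD on arrays 1, 2 and 3. Undetected human probes as a whole had medians of -1.87, -1.44 and -3.18 SD, and spots without a probe of -1.22, -0.91 and -1.99 SD. In 8 of the 14 lists no member was detected on any array. Of all human probes, 81.2% were detected on none. The lists were not matched for GC content, with which detection also went. Below 40% GC, 3.81% of miRNAs were detected on all 3 arrays and 364 of 394 on none. From 40 to under 50% GC these values were 9.18% and 462 of 523, and from 50 to under 60% 9.66% and 587 of 683. The part of GC content in the lineage counts was not tested. The lineage lists, too, were drawn up with earlier results of these arrays known.

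The hepatocyte miRNA miR-122-5p lay at -0.95, -0.91 and -3.19 SD. The 4 miRNAs of the pancreas (miR-375, miR-216a-5p, miR-216b-5p and miR-217) were not detected, nor were the 7 of muscle (miR-1, miR-133a-3p, miR-133b, miR-206, miR-208a-3p, miR-208b-3p and miR-499a-5p). The erythroid miRNA miR-451a lay at -1.67, -1.90 and -3.44 SD, the myeloid miRNA miR-223-3p at -0.60, -1.92 and -3.34 SD, and miR-142-3p, found in all blood lineages, at -2.43, -1.25 and -3.35 SD. Endothelial miR-126-3p and the fibroblast and smooth muscle miRNAs miR-143-3p, miR-145-5p, miR-199a-5p and miR-214-3p were below the limit on every array. The 8 miRNAs of the placental cluster on chromosome 19, the 4 of multiciliated cells, and miR-204-5p and miR-211-5p of pigment cells were also undetected. Of the 11 listed miRNAs of the imprinted cluster at 14q32, 10 were detected on no array. The list does not stand for the whole region, since miR-494-3p, miR-431-3p and miR-665, encoded there but not listed, were detected on all 3 arrays.

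**Figure D3:**
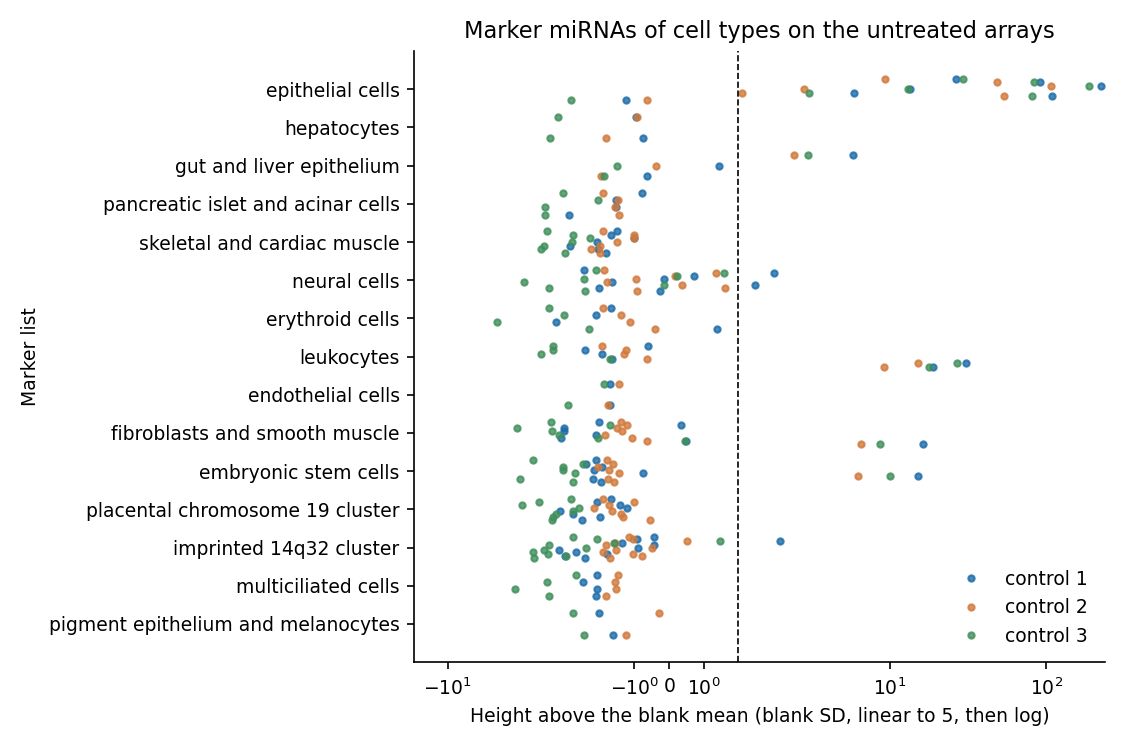
Height above the blank mean (x axis, in SD of the blank spots, linear to 5 and then logarithmic) of each miRNA on the epithelial list and the 14 lineage lists (y axis), 1 point per miRNA and control array. The dashed line marks the detection limit of 2 SD. Epithelial miRNAs reach over 200 SD, and in the other lists few miRNAs lie to the right of the line.

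The 5 exceptions belonged to lists whose other members were undetected on all 3 arrays. MiR-155-5p and miR-146a-5p, which immune cells carry but which NF-κB also induces in other cells, had relative signals of 32.9, 38.2 and 33.9 and of 20.2, 23.2 and 22.4. The 4 other leukocyte miRNAs on the list were undetected. MiR-10b-5p, encoded in the HOXD cluster, was at 17.3, 16.65 and 11.02, and miR-371a-5p, of the embryonic stem cell list, at 16.1, 15.8 and 12.7. MiR-372-3p and miR-373-3p, from the same locus as miR-371a, were undetected. MiR-192-5p, of gut and liver epithelium, was at 6.24, 9.16 and 5.06, whereas its cluster partner miR-194-5p was undetected. Each of the 5 lay at 3.61 SD or more on all 3 arrays.

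Another 3 lineage miRNAs passed the limit on array 1 only. MiR-9-5p, of neural cells, lay at 3.03, 1.34 and 1.57 SD. MiR-128-3p, also neural, lay at 2.49, 0.38 and -0.13 SD, and miR-370-3p, of the imprinted cluster at 14q32, at 3.20, 0.53 and 1.48 SD. Array 1 also had 11 of its 229 blank spots above the limit, so these calls are not separable from the spread of the blanks. Fewer of its other control spots passed, 2 of the 178 without a probe and none of the 24 negative controls. Array 2 had 13 blank spots above its limit, which was higher, 5.07 on the relative scale against 2.14 on array 1. MiR-9-5p was at 3.25, 3.41 and 1.99 on that scale, so its level was not highest on array 1, whereas those of miR-128-3p and miR-370-3p were.

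Arm use could be read for 802 precursor names with a probe to each arm. In 107 of them the 5p arm was detected on all 3 arrays and the 3p arm on none, and in 43 the reverse held. Both arms were detected on all 3 arrays in 9, neither arm on any array in 543, and 100 had a mixed pattern. The 5p arm was detected and the brighter on all 3 arrays in 120 precursors and the 3p arm in 49. For names below 1000 the counts were 54 and 29, for names from 1000 to below 4000 they were 8 and 10, and for names from 4000 upward 58 and 10.

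The brightest precursors were read from 1 arm. MiR-21 was represented by its 5p arm, at 785, 793 and 1040, while its 3p arm lay at 1.22, 0.42 and -1.25. Since the 3p arm was not detected, the lowest detected signal of each array was taken as the bound for it. The 5p probe was then at least 282-fold brighter as the mean of the log2 values of the 3 arrays, and at least 156-fold on the array with the lowest bound. For the next precursors the bound of the lowest array is given. The 3p arm was brighter on each array by at least 94.0-fold for miR-221, 76.6-fold for miR-23a, 61.0-fold for miR-29a, 59.1-fold for miR-23b and 53.7-fold for miR-200c. MiR-6822 was 5p by at least 87.3-fold and miR-1273g 3p by at least 145-fold. For miR-222 both arms were detected on array 1, where the 3p arm was 46.1-fold brighter, and the 5p arm was below the limit on the other 2 arrays.

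MiR-31 alone among the 10 brightest precursors had both arms detected on all 3 arrays. Its 5p arm was at 299.7, 351.9 and 352.4 and its 3p arm at 13.3, 15.6 and 18.3, a log2 ratio of 4.42 ± 0.13 (SD, n = 3). The other 8 precursors with both arms detected were less unequal. MiR-30a (log2 5p over 3p 2.27 ± 0.70), miR-6816 (1.81 ± 0.55), miR-6805 (1.66 ± 0.18), miR-30e (1.01 ± 0.24) and miR-151a (0.95 ± 0.42) leaned to 5p. MiR-125a (-0.69 ± 0.21) and miR-6765 (-1.64 ± 0.80) leaned to 3p on each array, and the arms of miR-423 did not keep an order (-0.22 ± 0.48).

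**Figure D4:**
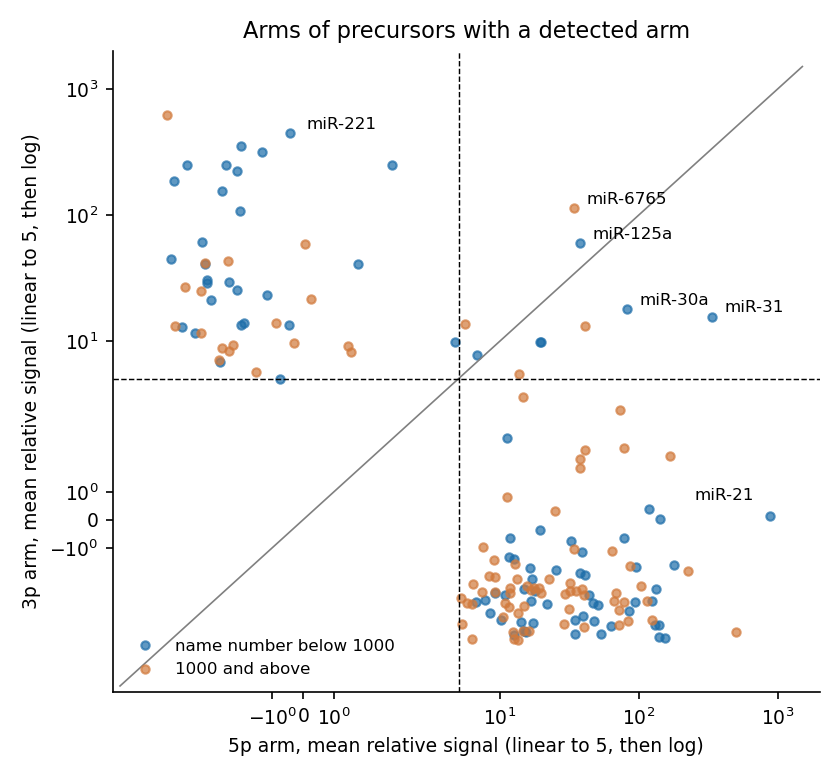
Mean relative signal over the 3 control arrays of the 5p arm (x axis) and the 3p arm (y axis) of each precursor with an arm detected on all 3 arrays, both axes linear to 5 and then logarithmic. The grey line marks equal brightness and the dashed lines 5.08, the highest of the 3 arrays' lowest detected signals; most points lie at the far lower right (5p only) or upper left (3p only), and few lie in the upper right corner between.

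MiR-204 differed from the arm by which it is known. Its 5p arm, the well-studied one in pigment epithelium, lay at -2.02, -0.29 and -2.75 SD, below the blank mean on each array. The 3p arm had a relative signal of 235, 219 and 211 and ranked 23rd by mean share. The mature sequences, with the seed in capitals, have a GC content of 45.5% for 5p and 61.9% for 3p.
miR-204-5p: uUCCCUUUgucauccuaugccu
miR-204-3p: gCUGGGAAggcaaagggacgu
They lie at chr9:70810031-70810052 and chr9:70809993-70810013 on the minus strand, within the span of TRPM3. What RNA bound the 3p probe was not tested.

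Detection went with GC content. Of the miRNAs with less than 40% GC, 15 of 394 (3.81%) were detected on all 3 arrays. The percentage was 9.18% from 40 to under 50% GC, 9.66% from 50 to under 60%, 13.2% from 60 to under 70% and 29.6% from 70 to under 80%. From 80% upward, 44 of 69 (63.8%) were detected. On each of the 3 arrays the percentage was higher in each class than in the class below. Detected miRNAs below 1000 had a median GC of 47.8%, and undetected ones 45.5%. From 4000 upward these medians were 68.2% and 54.2%. Among the 275 detected miRNAs with a sequence, the rank correlation of GC content with mean share was -0.000714 (Spearman, across miRNAs, given as a description). The part of base composition in detection was not tested.

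**Figure D5:**
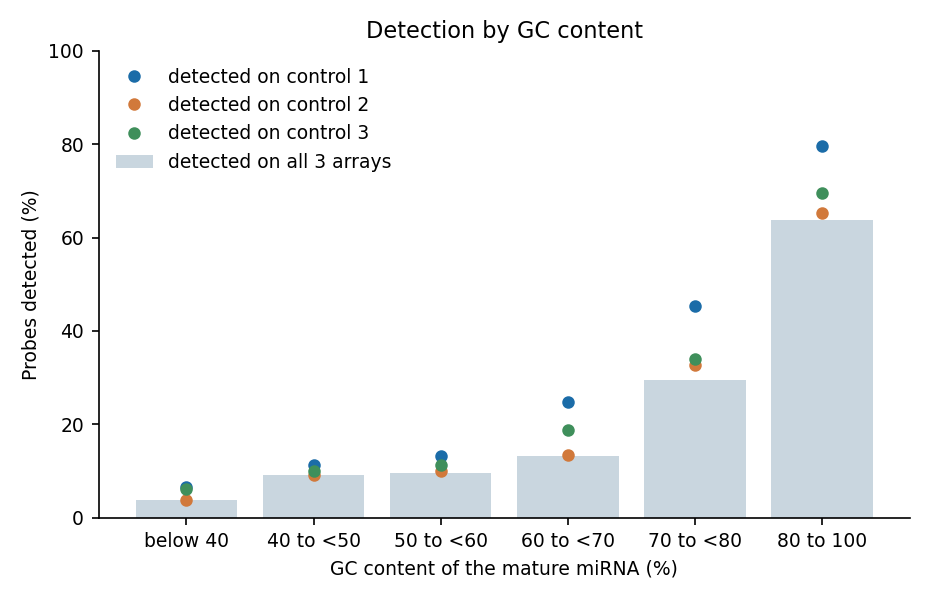
Percentage of probes detected (y axis) by GC content of the mature miRNA (x axis, %), as bars for detection on all 3 control arrays and points for each array. The bars run from 3.81% below 40% GC to 63.8% at 80% and above.

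MiRNAs encoded close together often differed in brightness. Clusters were taken as hairpins on the same strand with the next one within 10 kb, and whether their members share a transcript was not tested. In the miR-221 and miR-222 cluster, chrX:45746157-45747124, the gap between the members was 0.85 ± 0.08 on the log2 scale (SD, n = 3). It was 0.73 ± 0.07 between let-7c-5p and miR-99a-5p (chr21:16539089-16539911). In the clusters of the miR-200 family the gap was wider, 4.23 ± 0.50 between miR-200c-3p and miR-141-3p (chr12:6963699-6964191) and 4.28 ± 0.29 between miR-200b-3p and miR-429 (chr1:1167104-1169087), with miR-200a-3p, at 29.7 ± 6.93 on the relative scale, between them. In the cluster of miR-99b, let-7e and miR-125a (chr19:51692612-51693339), let-7e-5p was brightest and miR-99b-5p dimmest, 2.95 ± 0.16 apart. Between miR-106b-5p and miR-25-3p (chr7:100093560-100094074) the gap was small on arrays 1 and 2, at 0.25 and 0.21, and 1.01 on array 3. These gaps are between probes of different sequence.

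The spread of share between arrays was largest for a small set of miRNAs. Of the 100 with the highest mean share, miR-23b-3p had the widest range of log2 share (1.38), with relative signals of 286, 300 and 160. MiR-494-3p (1.34) was at 108, 135 and 318, let-7a-5p (1.22) at 213, 206 and 123, let-7b-5p (1.15) at 144, 156 and 97.8 and miR-4502 (1.13) at 73.1, 73.8 and 46.8. In all 5 of them array 3 was the one apart, above the others for miR-494-3p and below them for the other 4. The set depends on the scale, since a share also moves with the total of its array. On the relative scale the log2 range was 1.56 for miR-494-3p, 0.91 for miR-23b-3p and 0.79 for let-7a-5p. Others of the 100 had a wider range there than miR-23b-3p, such as miR-6765-3p (1.28), miR-4286 (1.20) and miR-5100 (1.08).

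Another 5 miRNAs exceeded 10 SD on an array and were below the limit on another. MiR-4480 lay at -0.10, -1.17 and 92.6 SD, and miR-424-5p, of the miR-15 and miR-16 seed, at -2.45, -1.04 and 19.5 SD. MiR-16-1-3p lay at 17.1, -1.11 and -3.67 SD. MiR-4708-3p (11.3, 2.56 and 0.94 SD) and miR-6769b-5p (3.93, 0.29 and 11.6 SD) were detected on 2 arrays. These 5 were chosen after their values were seen, and the first 3 each rest on 1 spot.

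At the limit itself, miR-193a-3p (5.0, 2.00 and 3.66 SD), miR-6165 (7.05, 2.06 and 8.13 SD) and miR-365b-5p (9.16, 5.88 and 2.08 SD) were the last to be counted among the 318. MiR-7-5p (6.63, 1.98 and 3.18 SD), miR-4649-5p (5.39, 2.28 and 1.95 SD) and miR-711 (5.09, 1.94 and 4.31 SD) were the first to be left out. For 4 of these 6 the lowest array was array 2, with the widest blanks.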

How the data were processed

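The authors deposited, for each array, the median intensity of every spot and a background median on a linear scale, without normalization. Per the file headers, readings at 3 scanner gains were joined by least-squares lines with 3D-Gene Extraction software (version not given in the sources used here). The authors also deposited a table of normalized intensity with a median of 25 per array, used here only as an alternative. Arrays were grouped by their titles.

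On each of the 3 control arrays, spots named as blank gave the mean to subtract, and probes over 2 SD of those spots counted as detected. The probe of miR-2392, the only human one flagged on these arrays (array 1), was treated as missing there. Shares, relative signals and arm ratios were computed within arrays and given as mean ± SD (n = 3), and no test was made, since only 1 group was described. The number of arrays limits the precision. Sequences and positions came from RefSeq tables of GRCh38.p14.

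The miRNAs named were the 30 with the highest mean share, all list members, the 10 brightest precursors and those with both arms detected, the 3 on either side of the limit, and the 5 with the widest range among the brightest 100. Members and lists were chosen with earlier results of these data known. Alternatives were a limit of 3 SD, a blank mean trimmed by 5% at each end, subtraction of the local background, normexp (offset 50, limma 3.58.1, R 4.3.3), 3 other denominators, quantile normalization, the normalized table and leaving out each array. 3 columns of that table, of treated cells, were not used. The steps were run in Python 3.11.15 with numpy 2.4.6 and scipy 1.17.1 and were tested on simulated arrays. In the simulation, absent probes had the same noise as the blanks and present ones lay well above the limit. Calls near the limit were therefore not tested by it.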

Additional observations from a re-analysis of the deposited data

How the results depend on the processing

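Of 76 alternative values for the counts and shares of the whole profile, 17 moved beyond the spread between arrays or by over 1.5 times. Of these, 6 came with the local background and 5 with normexp, which uses the same background values. The number of miRNAs detected on all 3 arrays, 318, was 62 with the local background and 63 with normexp. The 10 brightest then held 80.03% and 89.5%. The miRNA with the highest mean share, miR-7975 under both, held 31.6% and 36.8%. No lineage miRNA was detected on all 3 arrays under either (0 against 5). The 5p arm was the brighter in 17 and 18 precursors and the 3p arm in 7 and 7, so that the 5p arm led under both. The local background value followed the brightness of its own spot (Spearman 0.972, 0.935 and 0.866 across the 318 miRNAs on arrays 1, 2 and 3).

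Without the list of names that match other small RNAs, the 10 brightest held 58.7%, the brightest (miR-7975) 31.4%, and 4 miRNAs held 50%. Without the miRNAs ending in CACCA, an alternative chosen after seeing the data, these values were 35.2%, 12.6% (miR-4284) and 25. The limit of 3 SD gave 286 miRNAs, the authors' normalized values 341, and keeping the flagged spot, chosen after seeing the data, 319. Leaving out 1 array gave 319 to 369 miRNAs, 71.1% to 75.2% for the 10 brightest, 36.2% to 39.3% for the brightest, 2 to 2 for 50%, 5 to 5 lineage miRNAs, 120 to 143 precursors led by 5p and 50 to 56 led by 3p. Shares of the 30 named miRNAs moved beyond their SD for 29 with the local background, 28 with normexp, 3 with quantile normalization, all 27 that were left without the names matching other small RNAs, and none with the trimmed mean, the 3 SD limit, the other 2 denominators, the normalized table or any array left out. No paired analysis was possible because only 1 group was described. The wide blanks of array 2 limit what can be called absent there, and detection at a height of a few SD rests on single spots.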
